A study of Homo sapiens with 6 samples.

Results

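The genes that encode the proteasome, its activators, its inhibitor and its assembly chaperones were followed in PC-3 cells, an established human prostate cancer line. Members were chosen by name, as protein-coding symbols that begin with PSMA, PSMB, PSMC, PSMD, PSME, PSMF or PSMG and a digit, and 49 of 18984 protein-coding symbols in the table met this rule. Both groups carried the rtTA2 transactivator from a pRetroX-Tet-On-Advanced retrovirus. The tdTom group then received pRetroX-Tight-pPGK-tdTomato, and the TTP-tdTom group pRetroX-Tight-TTP-pPGK-tdTomato, so that the groups differ by TTP (tristetraprolin, the product of ZFP36). In each group 3 samples were collected after 4 h in 300 ng/ml doxycycline (Dox). Transduced cells had been selected in G418 and sorted for tdTomato, TTP was driven by a Tet-responsive promoter, and the controls received Dox as well.

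The deposited table gives 1 FPKM per group and locus (the fragments of a transcript relative to its length and to the size of the library), computed by the authors over the 3 samples. Per-sample values are not analysed here. There is therefore no spread between replicates and no test between the groups, and every difference below is one between 2 pooled values. Pairs of FPKM are given in the order tdTom, TTP-tdTom. ZFP36 itself stood at 5.56 FPKM with tdTom and at 5.54 in the group labelled TTP-tdTom, so that the transgene is not seen at this locus and every direction below rests on the labels. The epithelial markers KRT8, KRT18, KRT19 and EPCAM lay between 15.1 and 98.2 in the tdTom group, whereas the leukocyte marker PTPRC was at 0.243 and 0.566, the endothelial marker PECAM1 at 0.483 and 0.793, and the fibroblast collagen COL1A1 at 4.34 and 4.56. In bulk RNA, fewer cells with a transcript and less of it per cell cannot be told apart.

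The 26S proteasome degrades proteins tagged with ubiquitin. Its 20S core is a barrel of alpha subunits, which gate the entry, and beta subunits, some of which cut peptide bonds inside. The 19S cap recognizes the ubiquitin chain, removes it, and unfolds and threads the substrate with a ring of ATPases. Dedicated chaperones build core and cap and then leave. TTP binds AU-rich elements in 3′UTRs, for which UAUUUAU is the usual heptamer, and delivers the mRNA to decay enzymes.

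The heptamer was therefore sought in the 3′UTR of each member, written as TATTTAT in the DNA letters of the GENCODE release 29 transcripts. It was found in 7 of 47 members with a mean FPKM of at least 1 over the groups. The sites of all 7 are shown because they are the matches to the TTP motif in the set. Each line runs 5′ to 3′ with the heptamers in capitals.
PSMG1, bases 265 to 283 after the stop codon: tatctTATTTATTTATTTATTTATttttt
PSMG1, bases 150 to 156: ttttaattcctTATTTATggtggtattat
PSMB2, bases 924 to 934: ttttagattTATTTATTTATttagagaca
PSMB5, bases 345 to 351: atcctccatccTATTTATagtggaagggc
PSMC3IP, bases 275 to 281: gcatttggcaaTATTTATtataatttaat
PSMD12, bases 1305 to 1311: gatatctgtcaTATTTATcctgtgagtca
PSME3, bases 1034 to 1040: ctatttctcttTATTTATagtgtcgggct
PSMG4, bases 1136 to 1142: gaaggtattcaTATTTATacagacggaaa

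Most proteasome transcripts were lower in the TTP-tdTom group by about as much as the median gene, so that 22 of 47 lay above 0 once the values were centred on that median, and few were much lower. A log2 fold change here is TTP-tdTom over tdTom, each FPKM raised by a pseudocount of 0.1, and a gene counts as lower or higher past a fold of 1.5. Of the 49 members, 47 passed the minimum of 1 for the mean FPKM, and PSMA8 (testis) and PSMB11 (thymus) did not. Of the 47, 4 were at least 1.5-fold lower, or 8.51%, against 22.6% of the 11727 protein-coding symbols over the same minimum. No member was at least 1.5-fold higher, against 2.08% of all symbols. At a minimum mean FPKM of 10, which 43 members passed, only 13 of 5293 symbols were higher, so higher genes were rare at such levels in any case. At least 20% lower were 12 of the 47 (25.5%), against 40.1% of all symbols, and at least 25% higher were 0, against 4.48%. At least 2-fold lower was 1 member, against 8.21% of all symbols, and at least 2-fold higher were 0, against 1.19%. The median log2 fold change was -0.24 for the members and -0.24 for all symbols. The members were packed more closely around it, between quartiles of -0.32 and -0.09, whereas the quartiles of all symbols were -0.54 and -0.05. Before any centring 45 of the 47 were lower and 2 higher, against 9440 lower and 2287 higher of all 11727 symbols. Of the members, 7 lay above 0 after rescaling both groups to the same FPKM sum and 22 after the centring. The order of the levels was nearly the same in both groups (Spearman's rho 0.98 over the 47 members, which share their 2 sets of libraries). The plot of levels sets both groups side by side.

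**Figure D1:**
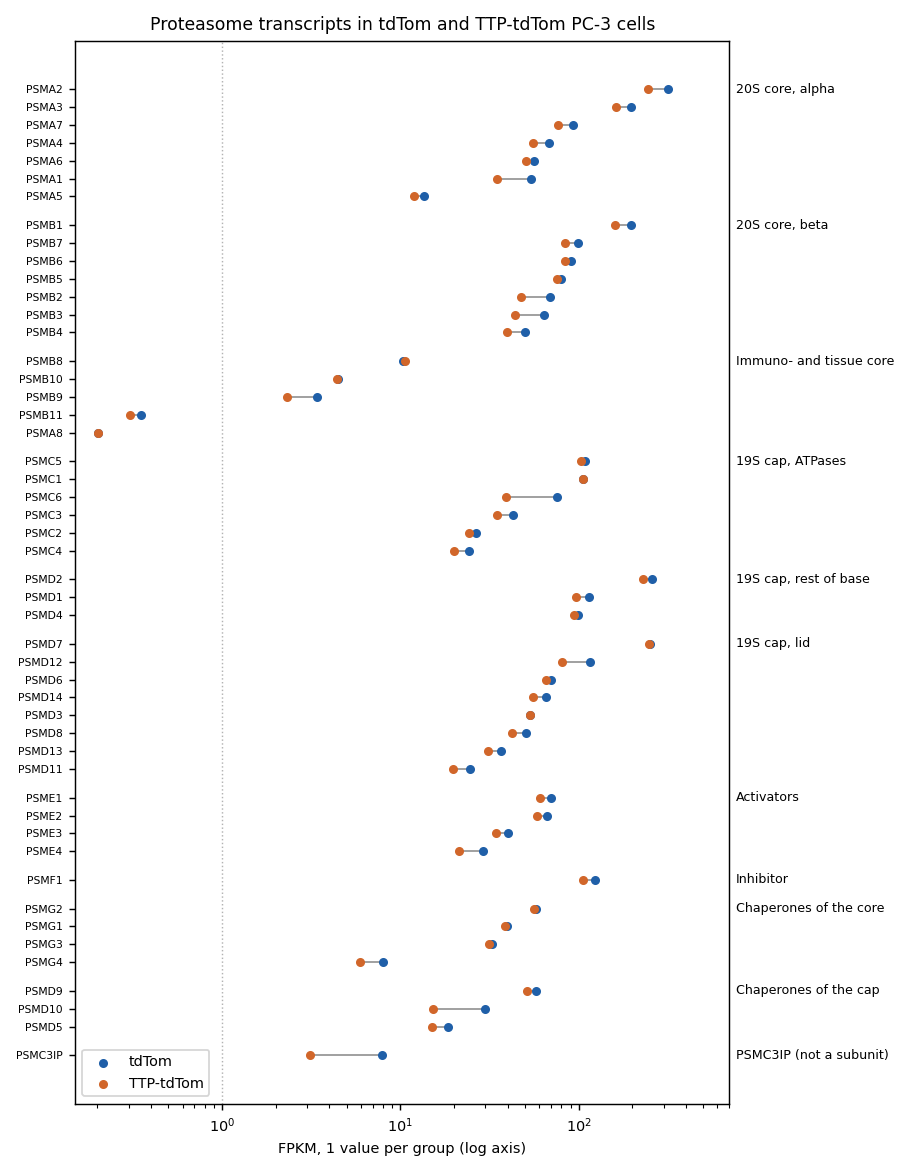
FPKM of the 49 members on a log axis, grouped by role, with 1 pooled value for the tdTom group (blue) and 1 for the TTP-tdTom group (orange) joined by a line. Most pairs nearly touch, and PSMC6, PSMD10, PSMA1 and PSMC3IP show the longest lines; the dotted line marks an FPKM of 1.

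The alpha ring of the core held 1 of the lower genes (14.3% of the ring, against 22.6% of all symbols). PSMA1, on chromosome 11 of GRCh37 from 14526406 to 14665180, had 54.0 FPKM with tdTom and 35.0 with TTP-tdTom, 1.54-fold lower (log2 fold change -0.62). It lay just past the fold of 1.5, and PSMB9, at -0.54, was the nearest member short of it. PSMA1 no longer passed that fold after centring (-0.39), after rescaling (-0.57) or with the median of genes of like GC content subtracted (-0.38). The other alpha subunits lay between -0.37 (PSMA2) and -0.14 (PSMA6). PSMA2 was the most abundant member per length in the tdTom group, at 314.9 FPKM, and PSMA5 the least abundant of the ring, at 13.5. This is a range of 23.3-fold with tdTom and 20.4-fold with TTP-tdTom among subunits that share the ring in equal numbers.

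The beta ring had log2 fold changes under 0 in all 7 genes, as had 9440 of all 11727 symbols, and PSMB5 and PSMB6 lay above 0 after centring. In the ring 0 genes were at least 1.5-fold lower, against 22.6% of all symbols. Its catalytic subunits lay among the smaller differences. PSMB5, which carries the chymotrypsin-like activity, had 79.9 FPKM with tdTom and 75.8 with TTP-tdTom (log2 fold change -0.08). PSMB6, with the caspase-like activity, had 90.4 and 84.1 (-0.10), and PSMB7, with the trypsin-like activity, had 98.9 and 83.5 (-0.24). Structural neighbours were further apart. PSMB2, on chromosome 1 from 36038971 to 36107541, had 68.6 and 47.3 (-0.53), and PSMB3, on chromosome 17 from 36909002 to 36920478, had 63.8 and 44.1 (-0.53). With PSMB1 and PSMB4 at -0.29 and -0.34, the median of the 14 core subunits was -0.29. Once the median of genes of like GC content was subtracted, PSMB2 was at -0.20 and PSMB3 at -0.39.

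The immunoproteasome subunits, which replace the catalytic subunits under interferon, were expressed at low levels. PSMB8, the counterpart of PSMB5, had 10.4 FPKM with tdTom and 10.7 with TTP-tdTom, and with a log2 fold change of 0.04 it was the highest of all 47. PSMB10, the counterpart of PSMB7, had 4.47 and 4.40 (-0.02), or a log2 fold change of -0.26 with the FPKM of its 2 further loci added. PSMB9, the counterpart of PSMB6, had 3.39 and 2.30 (-0.54). PSMB8 therefore made up 11.5% of the summed FPKM of PSMB8 and PSMB5 with tdTom and 12.3% with TTP-tdTom. The share of PSMB9 beside PSMB6 was 3.61% and 2.67%, and that of PSMB10 beside PSMB7 was 4.33% and 5.00%. With the further loci of PSMB10 added, a share computed after seeing the data, it was 6.79% and 6.68%, the opposite direction. The strand of those further loci was not looked at, so their signal may not be PSMB10 mRNA.

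In the ATPase ring of the cap, 1 gene stood apart from the other 5. PSMC6, on chromosome 14 from 53172675 to 53196689, had 75.7 FPKM with tdTom and 38.9 with TTP-tdTom, 1.95-fold lower (log2 fold change -0.96). With the median of genes of like GC content subtracted it was at -0.22, still the lowest of the ring but near PSMC3 (-0.18) and PSMC4 (-0.17). At that setting PSMC5 (0.07), PSMC1 (0.19) and PSMC2 (0.44) lay above 0. PSMC1, in the same ring, had 105.7 and 105.2 (-0.01). The remaining ATPases were at -0.07 (PSMC5), -0.12 (PSMC2), -0.28 (PSMC4) and -0.30 (PSMC3). PSMC6 thus had 51.3% of its tdTom value and each of the other ATPases between 81.4% and 99.5%. Reads of PSMC1 may be shared with pseudogenes, of which GENCODE names 13 after it and 0 after PSMC6.

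In the rest of the base the differences were small. PSMD2, a scaffold that docks ubiquitin shuttles and USP14, had 258.8 and 230.7 FPKM (log2 fold change -0.17). PSMD4, a ubiquitin receptor, had 99.7 and 94.0 (-0.08), and PSMD1 lay at -0.25. In the lid, PSMD14, the deubiquitinase that cuts the chain from the substrate, had 65.7 and 55.7 (-0.24). PSMD7, the catalytically inactive partner of PSMD14, had 250.6 and 246.7 (-0.02), and PSMD3, a lid scaffold, had 53.0 and 53.1 (0.00294). PSMD12, another lid scaffold, on chromosome 17 from 65333730 to 65362894, had the largest difference of the lid, with 115.8 and 80.7 (-0.52), though its log2 fold change was 0.22 once the median of genes of like GC content was subtracted. The other lid genes lay between -0.30 (PSMD11) and -0.08 (PSMD6). The median over the 17 cap subunits with a PSM symbol was -0.24, against -0.29 for the core. The ranges of core (-0.62 to -0.08) and cap (-0.96 to 0.00294) overlapped, and with 1 pooled value per group the difference between core and cap could not be tested. The plot by role shows both.

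**Figure D2:**
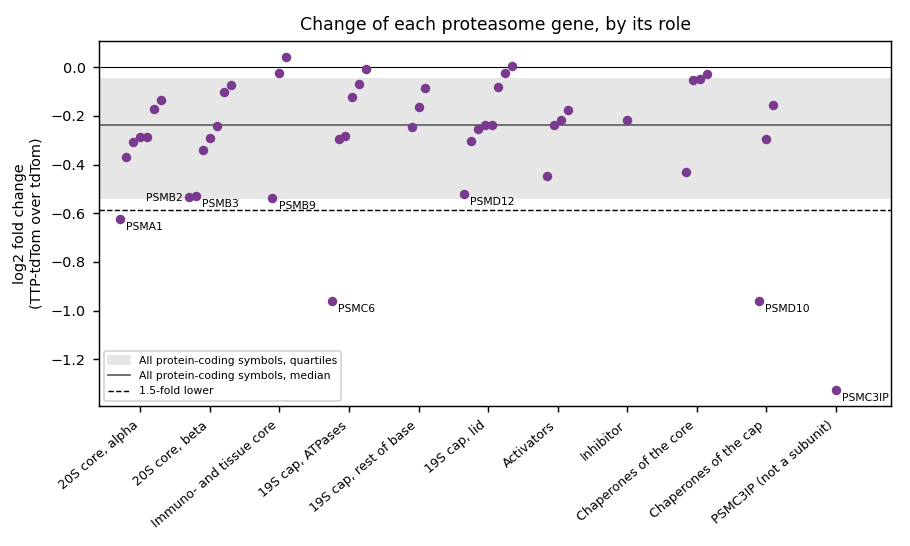
log2 fold change (TTP-tdTom over tdTom) of the 47 members that passed the minimum FPKM, 1 point per gene, by role; the grey band and line are the quartiles and the median of all protein-coding symbols. Most points lie in the band, and 4 lie under the dashed line at a fold of 1.5.

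Alternative caps and the inhibitor followed the same range. PSME1 and PSME2, which together form the interferon-inducible PA28 activator, had 70.3 and 60.5 FPKM (PSME1, log2 fold change -0.22) and 66.1 and 58.5 (PSME2, -0.18). PSME3, the nuclear member of that family, had 40.3 and 34.2 (-0.24). PSME4, the large single-chain activator PA200, had 29.1 and 21.3 (-0.45), the largest difference of the 4, though at -0.034 it was no longer the largest once the median of genes of like GC content was subtracted. PSMF1, an inhibitor of the core, had 123.4 and 106.2 (-0.22).

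Assembly chaperones showed 1 large difference. PSMD10, also known as gankyrin, which helps to assemble the base by binding an ATPase and is known as an oncoprotein, lies on chromosome X from 107327435 to 107334874. It had 29.7 FPKM with tdTom and 15.2 with TTP-tdTom, 1.94-fold lower (log2 fold change -0.96), and at -0.54 it no longer passed the fold of 1.5 once the median of genes of like GC content was subtracted. The other chaperones of the base differed less, PSMD5 with 18.4 and 14.9 (-0.30) and PSMD9 with 57.3 and 51.4 (-0.16). GENCODE names 3 pseudogenes after PSMD10 and 0 after PSMD5 and PSMD9. Of the chaperones of the core, PSMG1 had 39.8 and 38.5 (-0.05), and PSMG2, with which it pairs, had 57.5 and 56.4 (-0.03). PSMG3 had 32.6 and 31.5 (-0.05), whereas PSMG4, its partner, had 8.04 and 5.94 (-0.43).

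The member with the largest difference is no part of the proteasome. PSMC3IP, which the rule takes in by its symbol, encodes a cofactor of strand exchange in homologous recombination. It lies on chromosome 17 from 40719078 to 40729849 and had 7.90 FPKM with tdTom and 3.10 with TTP-tdTom, 2.50-fold lower (log2 fold change -1.32). Of all symbols, 2.88% had a lower log2 fold change than PSMC3IP, 9.19% a lower one than PSMC6 and 9.20% a lower one than PSMD10. Without PSMC3IP, a restriction chosen after seeing the data, 3 of 46 members (6.52%) were at least 1.5-fold lower, against 22.6% of all symbols.

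The 7 members with a heptamer had a median log2 fold change of -0.43 and the 40 without one a median of -0.24, with single genes on either side. With the median of genes of like GC content subtracted, PSMC3IP (-1.13), PSMG4 (-0.28) and PSMB2 (-0.20) lay below 0. PSME3 (0.0035), PSMB5 (0.070), PSMG1 (0.19) and PSMD12 (0.22) then lay above 0, and the median of all 47 members was 0.023. PSMG1 held 5 heptamers, 4 in the overlapping run printed above, in a 3′UTR of 821 bases, and its TTP-tdTom value was 96.7% of the tdTom value. The 178 symbols with 5 or more copies had a median log2 fold change of -0.61, and 51.7% of them were at least 1.5-fold lower, but their median 3′UTR of 6003 bases was far longer than that of PSMG1. PSMB5 held 1 copy and kept 94.9%. PSMC6, PSMD10 and PSMA1 held 0 copies, and these letters are therefore not in 3 of the 4 members past the fold of 1.5. PSMB5 and PSMC3IP each held a heptamer in all 3 matched transcripts. PSMB2 held at least 1 in both of its matched transcripts, and the 2 overlapping copies were counted in the one with the longest 3′UTR. In PSMG1 a heptamer was in 1 of 2 matched transcripts, in PSMD12 in 1 of 2, in PSMG4 in 1 of 3 and in PSME3 in 2 of 3. The deposited values are per locus, and which transcript the cells used was not analysed here.

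Seen across the list, the heptamer was uncommon in proteasome genes. It was present in 14.9% of the 47 members and in 35.0% of 11603 symbols with an annotated 3′UTR. The 3′UTRs of the members were short, with a median of 320 bases against 1246. Among the 4689 symbols whose 3′UTR lay within the members' quartiles, from 134 to 1078 bases, the heptamer was present in 16.1%, the median log2 fold change was -0.18, and 14.6% were at least 1.5-fold lower. Over all symbols the median was -0.17 with 0 copies, -0.37 with 1 and -0.56 with 2 or more. Over the members it was -0.24 in the 40 genes with 0 copies and -0.43 in the 5 genes with 1 copy, and the 2 genes with more were PSMB2 at -0.53 and PSMG1 at -0.05. These are descriptions across genes, which are not replicates, and the medians are without a GC correction. The part of the heptamer in any difference was not tested.

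GC content of the transcript went along with the log2 fold change over all symbols (Spearman's rho 0.48 over 11603 symbols, 0.35 over the 47 members), and its part in the differences was not tested. In the decile with the lowest GC content, up to 38.5%, the median log2 fold change was -0.74, and in the highest decile it was -0.09. PSMC6, with a GC content of 38.1%, belongs to the lowest decile and lay 0.22 under the median of that decile. PSMD10, at 41.5%, was in a decile with a median of -0.42, and PSMA1, at 45.4%, in one with a median of -0.24. PSMC3IP, at 49.6%, was in a decile with a median of -0.19. Some GC-poor subunits stood well above their decile, PSMA5 with a log2 fold change of -0.17 against a median of -0.74 and PSMC2 with -0.12 against -0.56. With the decile median subtracted, 25 of the 47 members lay above 0 and 22 below, and PSMC3IP alone was still at least 1.5-fold lower, against 7.30% of all symbols. The plot against GC content shows these genes.

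**Figure D3:**
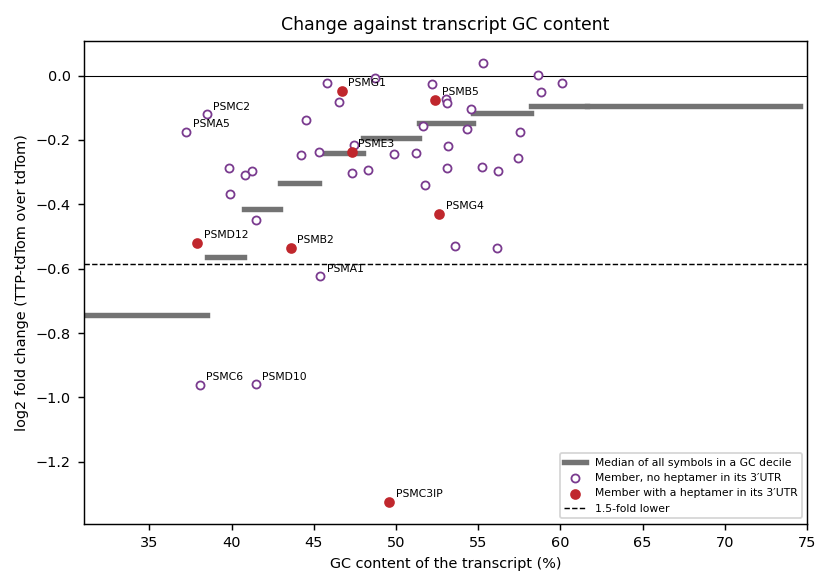
log2 fold change (TTP-tdTom over tdTom) of the 47 members against the GC content of their transcripts; grey bars are the medians of all protein-coding symbols by decile of GC content, and filled points are the 7 members with a heptamer in the 3′UTR. PSMC3IP lies far under its decile, PSMG1 above its own, and PSMC6 near the bar of the GC-poorest decile.

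Proteasome promoters can carry an antioxidant response element, which NFE2L1 and NFE2L2 bind, and its letters (TGAC, any 3 bases, then GC) were sought on both strands from 250 bases before to 50 after the start, in RefSeq promoters of GRCh38.p14. They were present in 15 of the 43 members with an entry (34.9%) and in 16.1% of 27305 genes. PSMA7, PSMB1, PSMB6, PSMB7, PSMD4 and PSMG3 had no entry. Matches with the motif in capitals are shown for a core subunit, a cap subunit and an activator, to show where the letters lie, with positions counted from the start.
PSMA4, motif from position -126: gtgggcacgaTGACTCTGCaccgcctcct
PSMD12, motif from position -165: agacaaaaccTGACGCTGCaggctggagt
PSME1, motif from position -86: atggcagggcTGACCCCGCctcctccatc

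The 15 members with the motif had a median log2 fold change of -0.25 and 0 of them were at least 1.5-fold lower. The 26 others with an entry that passed the minimum FPKM had a median of -0.24, and 4 of them were lower, against 22.6% of all symbols, so that nothing about the motif is read from these counts. Of the factors, NFE2L1, which restores proteasome genes when the proteasome is inhibited, had 28.7 FPKM with tdTom and 27.4 with TTP-tdTom (-0.07). NFE2L2, its relative in the oxidative stress response, had 23.8 and 11.9, or 49.8% of its tdTom value, and NGLY1, the enzyme that activates NFE2L1, had 18.2 and 13.7 (-0.40). With the median of the GC decile subtracted, NFE2L2 was at -0.76 and NGLY1 at 0.012.

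Of 12 further subunits and partners of the proteasome, listed apart because they lack a PSM symbol, 4 were at least 1.5-fold lower (33.3%, against 22.6% of all symbols). With the median of the GC decile subtracted, 1 was (against 7.30% of all symbols). Before that subtraction 0 were at least 1.5-fold higher, and the median was -0.25, against -0.24 for all symbols. The 4 were USP14, UCHL5, UBE3C and ZFAND5, and whether the list differs from the PSM members was not tested. USP14, a deubiquitinase that docks on the cap, had 27.6 and 12.3 FPKM (log2 fold change -1.15). UCHL5, the other deubiquitinase that docks there, had 54.5 and 29.8 (-0.87), and UBE3C, a ubiquitin ligase bound to the cap, had 18.6 and 8.03 (-1.20). ZFAND5, an activator of the proteasome, had 16.1 and 9.45 (-0.76). By contrast ADRM1, the ubiquitin receptor on which UCHL5 docks, had 63.5 and 62.0 (-0.04). POMP, which drives maturation of the core, had 116.0 and 114.9 (-0.01), and FBXO7, at 0.04, was the highest of the list. SHFM1, which encodes the small lid subunit DSS1, had the highest FPKM of the list, 664.1 and 577.1 (-0.20), and KIAA0368, the adaptor ECM29, had 15.6 and 11.5 (-0.43). USP14 and UBE3C held 2 heptamers each, ZFAND5 1 and UCHL5 0. PAAF1, another assembly chaperone of the base, held 5 and had 21.5 and 18.5 FPKM (-0.22), and TXNL1, a thioredoxin bound to the cap, held 4 and had 110.2 and 90.9 (-0.28). In their deciles of GC content the median was -0.74 for USP14, -0.24 for UBE3C, -0.33 for ZFAND5 and -0.56 for UCHL5. With these subtracted, also chosen after seeing the data, 1 of the 12 was still at least 1.5-fold lower (against 7.30% of all symbols at that setting), UBE3C at -0.96, and USP14 (-0.41), UCHL5 (-0.31) and ZFAND5 (-0.43) were not.

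Of 9 ubiquitin shuttles and genes of the p97 unfoldase, 1 was at least 1.5-fold lower (11.1%, against 22.6% of all symbols). This was UBQLN1, a shuttle, with 12.5 and 7.33 FPKM (log2 fold change -0.77, or -0.43 with the median of its GC decile subtracted), and the smallest difference was that of NPLOC4, a p97 cofactor (-0.12). VCP, which encodes p97, lay at -0.17, at a locus that also carries another symbol.

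Complexes of like build are given for scale. The COP9 signalosome and eIF3 share the scaffold folds of the lid, and the CCT chaperonin is a double ring. The median was -0.24 over 9 signalosome genes, of which 2 were at least 1.5-fold lower, -0.21 over 13 genes of eIF3, of which 1 was lower, and -0.31 over 8 genes of CCT, of which 2 were lower. COPS8 had the largest difference of the signalosome (-0.97), EIF3C that of eIF3 (-0.62) and CCT6A that of CCT (-0.77), the last 2 at loci that carry another symbol as well. EIF3C had only 1.46 FPKM with tdTom and 0.919 with TTP-tdTom, near the minimum of 1. The counts of lower genes are 22.2%, 7.69% and 25% of the lists, against 22.6% of all symbols. With the medians of the GC deciles subtracted, the counts were 0, 0 and 1 (CCT6A, -0.63), against 7.30% of all symbols at that setting. No gene of these complexes was at least 1.5-fold higher, and no difference between complexes was tested. The plot of lists shows them beside core and cap.

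**Figure D4:**
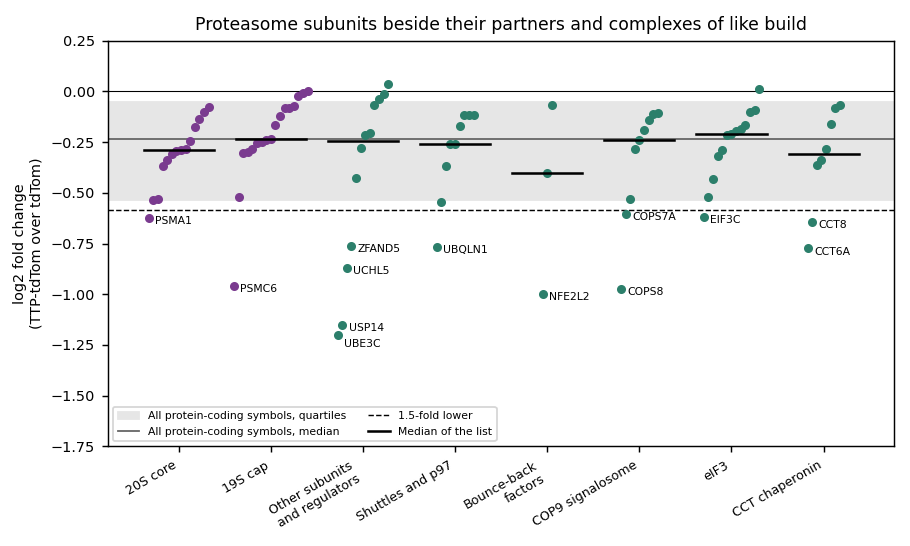
log2 fold change (TTP-tdTom over tdTom) of the 14 core and 17 cap subunits with a PSM symbol (purple) and of the other lists (green). Each gene has 1 point, and the median of each list is a black bar. The grey band and line are the quartiles and median of all protein-coding symbols. PSMC6 and PSMA1 stand alone under the dashed line among core and cap subunits. UBE3C, USP14, UCHL5 and ZFAND5 lie under it in the list of other subunits and regulators.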

How the data were processed

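The authors sequenced RNA of 3 tdTom and 3 TTP-tdTom samples of PC-3 cells, which the labels do not describe as separate cultures. Reads from strand-specific libraries were mapped with TopHat2 2.0.13 to Hs37D5 (GRCh37 with decoy sequence), and Cufflinks 2.2.1 was used to compare the groups. Each locus of the deposited table has 1 FPKM value for each group, which the authors estimated from its 3 samples. The table also holds the authors' own fold changes and p-values, which were not used. FPKM holds no counts, so the depth per sample is unknown and no interval is given.

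Per symbol, the locus with a protein-coding RefSeq name and the most RefSeq names was used, then the highest FPKM sum. Members and lists were chosen with earlier results of these data known. Genes given in full were the catalytic subunits, receptors, activators, chaperones, the 8 largest and the 5 smallest differences. 3′UTRs and GC content came from the GENCODE release 29 transcript with the longest 3′UTR among those matching the RefSeq names (GRCh38; no coordinates of it are given). The alternatives were other pseudocounts, minimum FPKM values, scalings, loci per symbol, folds and a GC correction. The functions were tested on simulated data. Python 3.11.15, numpy 2.4.6 and pandas 2.3.3 were used.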

Additional observations from a re-analysis of the deposited data

Results flagged for a closer look

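Of the 49 members, 5 also had their symbol at 13 further loci of the table, which the main values do not include, and at 5 of these the FPKM was at least 1.5-fold higher in the TTP-tdTom group, which is why they are listed. A further PSMC6 locus, with the same coordinates as the main one, had 0.492 FPKM with tdTom and 1.954 with TTP-tdTom, the opposite direction to the main locus. For PSMD1 the values were 0.372 and 1.457. Of the 8 further PSMG2 loci, 3 were higher, with 0.271 and 1.067, with 0.626 and 1.205, and with 4.246 in the TTP-tdTom group where the tdTom group is listed at 0. At 5 other further loci the value was at least 1.5-fold lower. These differences were not tested. No minimum FPKM was applied to the further loci, and their strand was not looked at. For scale, without a minimum 1729 of 18984 protein-coding symbols were at least 1.5-fold higher at their main locus and 3454 lower.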

How the results depend on the processing

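No paired analysis was possible because the deposited table holds 1 value per group, which also kept fits with a replicate block or without a replicate from being run. The number of members at least 1.5-fold lower, 4, was 1 with a fold of 2, 12 where a value at least 20% lower was enough and 1 with the median of the GC decile subtracted, since PSMC6, PSMD10 and PSMA1 then lay between -0.22 and -0.54. It was 3 or 4 under the other settings. PSMA1 no longer passed the fold of 1.5 after centring or rescaling to the same FPKM sum over loci with a symbol. The median log2 fold change of the members, of the core and of the cap, -0.24, -0.29 and -0.24, was -0.0030, -0.054 and -3.2e-05 once centred on the median symbol. It was -0.19, -0.24 and -0.18 after rescaling, and 0.023, -0.0034 and 0.074 with the GC decile median subtracted. With a pseudocount of 1 the members and the cap were at -0.23 and -0.23, and with FPKM summed over all loci of a symbol the cap was at -0.23. Of all symbols past the fold, 91.6% were lower in the main analysis, 66.6% without a filter on low values, 76.5% after centring and 59.4% with the GC decile median subtracted. The number of all symbols at least 1.5-fold lower, 2651, was 1547 after centring and 852 with the GC decile median subtracted. PSMC3IP, PSMC6, PSMD10 and PSMA1 stayed below 0 under each setting that gave them a value. Of the 30 genes named by rule, 18 lay on both sides of 0 across the settings, mostly through centring or the GC decile. Centring shifts every gene alike, so a change of side under it is fixed by the main value and tells nothing about single genes. With 1 value per group, no counts and the authors' p-values left unused, small differences were not set against sampling error here.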
